A study of Mus musculus with 30 samples.

Results

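The genes described here mark macrophages that enter injured tissue or take up lipid: Trem2, Gpnmb, Itgax, Fabp5, Lgals3, Msr1, Cd14, Csf1r, Cd68 and Ly6c2. A member was any array probe that the scanner files give 1 of these 10 gene names, and 9 of the 10 had a probe. They had 13 probes in all, and each of the 13 passed the filter on dim probes. These 9 genes were 9 of the 23268 gene names tested. Ly6c2, which encodes the surface antigen of inflammatory blood monocytes, had no probe of that name, so it has no value here. The probe of its neighbour Ly6c1 is a separate gene's and was not put in its place.

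RNA of mouse aorta was measured on 30 single-colour Agilent arrays, with 3 arrays in each of 10 groups. All mice carried the strain label C57BL/6. They were either wild type (WT) or uMT, a line that lacks mature B cells in every tissue. In each genotype 1 group had no operation, which the labels call pre. The other groups had either 0.5 M CaCl2, which injures the vessel and is used to model abdominal aortic aneurysm, or physiological saline (sham) placed around the aorta, and were sampled at 7 or 42 days. The tissue label is abdominal aortic aneurysm for all 30 samples, those of the pre and sham groups included. The labels give no age, sex or animal number and do not say that replicates came from separate animals. The p-values therefore measure the spread between these samples, which may be technical.

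Macrophages of an injured artery come from resident adventitial cells and from blood monocytes, and both depend on the growth factor receptor Csf1r. Macrophages that take up lipid and cell debris carry a known programme: the lipid-sensing receptor Trem2, which signals through the adaptor Tyrobp and the kinase Syk, with Gpnmb, Fabp5 and Lgals3. In bulk aorta a lower signal can mean fewer cells of a type or less RNA per cell, and these cannot be told apart.

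A level is the log2 signal of a probe relative to the 75th percentile of its array, so levels of different probes are not comparable. A change is a difference of 2 group means of 3 arrays, given in log2 units ± its standard error. Every adjusted p is from limma with Benjamini-Hochberg adjustment over all 23268 gene names, and a gene was called at an adjusted p under 0.05. The fit shares 1 estimate of spread per gene across the 10 groups. For counts from other fits, such as those that leave out an array, the share of gene names called is given only where stated. Elsewhere such counts show how stable a call was and are not set against all gene names. Each sham group was used both against CaCl2 and against the unoperated group, so a low sham array raises the first difference and lowers the other.

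The share of probes well above background was 42.4% to 61.8% on 29 of the arrays and 36.6% on the WT sham day 42 array of replicate 2. The 75th percentile of signal on that array was 36.1 intensity units, against 82.3 to 428 on the other 29 arrays. The next lowest were uMT arrays: CaCl2 day 42 replicate 1 (82.3), pre replicate 2 (90.7) and sham day 42 replicate 3 (95.7). The WT sham day 42 array of replicate 2, called the dim array here, was also the only array of its slide and of the second scan day. On it, the probe that stands for each of the 9 members had the lowest value of its group, while the other 2 probes of Csf1r had their highest. For WT sham at day 42 the members' counts and main changes, and the counts of gene lists and marker sums, are given with this array kept and left out. Levels and other values keep it unless its omission is stated. In all, 5 slides were used. No slide held CaCl2 and sham arrays of the same genotype and day, apart from 1 sham array beside the WT CaCl2 arrays of day 42, so slide and treatment cannot be told apart in the uMT comparisons of CaCl2 with sham. In WT at day 7 slide could be fitted as a fixed term only through the arrays of other groups. As a check of the genotype labels, the summed log2 level of 3 B cell genes (Cd79a, Cd79b, Ms4a1) was 0.776 to 2.48 on the 6 WT CaCl2 arrays and -0.769 to -0.299 on the 6 uMT ones. In the unoperated aorta these ranges overlapped between genotypes, at -1.79 to -1.12 in WT and -1.45 to -0.558 in uMT. They also overlapped in sham at day 7, at 0.0373 to 0.975 in WT and 0.0178 to 0.22 in uMT. The summed log2 level of 9 general macrophage genes, among them Adgre1 and C1qa, was 4.5 to 5.19 in WT pre and 5.76 to 6.42 in uMT pre.

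Promoter sequences are shown because several members had closely parallel levels across the arrays. The RefSeq table of assembly GRCm38.p6 held 6 of the 10 members, and 5 of them, Trem2, Gpnmb, Itgax, Lgals3 and Cd68, were searched. The 250 bases before the start are printed for 2 members with an AP-1 match in them and for Trem2, which had none. The regions are chr7:128129300-128129549 for Itgax (plus strand), chr11:69666171-69666420 for Cd68 (minus strand) and chr17:48346151-48346400 for Trem2 (plus strand). Capitals mark the AP-1 letters TGAGTCA, and each sequence runs 5′ to 3′ on the gene's strand.
Itgax: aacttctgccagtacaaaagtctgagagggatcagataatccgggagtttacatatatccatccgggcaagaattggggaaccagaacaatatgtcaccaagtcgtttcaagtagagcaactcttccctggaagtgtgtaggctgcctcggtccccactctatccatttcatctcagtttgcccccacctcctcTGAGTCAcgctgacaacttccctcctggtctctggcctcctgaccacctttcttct
Cd68: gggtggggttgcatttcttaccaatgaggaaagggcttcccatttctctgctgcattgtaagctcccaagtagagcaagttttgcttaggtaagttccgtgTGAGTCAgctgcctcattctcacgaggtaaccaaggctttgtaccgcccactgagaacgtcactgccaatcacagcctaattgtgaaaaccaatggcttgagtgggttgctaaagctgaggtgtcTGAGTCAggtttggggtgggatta
Trem2: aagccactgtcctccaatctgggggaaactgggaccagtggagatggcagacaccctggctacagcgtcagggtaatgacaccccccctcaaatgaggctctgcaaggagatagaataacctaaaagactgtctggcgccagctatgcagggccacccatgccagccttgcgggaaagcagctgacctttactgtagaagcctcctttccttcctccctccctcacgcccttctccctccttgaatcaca
The search covered 300 bases per promoter, 250 before and 50 after the start, on both strands. AP-1 letters lay at -56 to -50 in Itgax and at -149 to -143 and -24 to -18 in Cd68, counted from the start. In Gpnmb they lay on the opposite strand at 9 to 15 after the start, outside the bases printed here, and Lgals3 had none. TGAGTCA was found in 5.2% of the 32851 promoters of that length in the table. The PU.1 letters GAGGAAGT, present in 3.2% of those promoters, and the MITF and TFEB letters TCACGTGA, present in 0.974%, were in none of the 5. No match overlapped a match to another motif. These are matches of letters and not measured sites.

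Trem2, the lipid-sensing receptor, was low in unoperated aorta, high after either operation at day 7 and, in both genotypes, above sham after CaCl2 at day 42. Its probe lies at chr17:48491537-48491596 (mm9). Levels in replicates 1, 2 and 3 of WT pre were 0.52, 0.54 and 0.07. They were 5.43, 5.91 and 5.58 in WT sham day 7, and 6.50, 7.35 and 6.90 in WT CaCl2 day 7. Each of these 3 groups lay wholly above the one before it. At day 42 the WT sham arrays read 2.80, 0.87 and 4.5, and the WT CaCl2 arrays 6.09, 5.94 and 6.83. The WT sham arrays of day 42 were far apart, the 0.87 being the dim array, and every CaCl2 array was above every sham array. In uMT the pre arrays read 2.03, 1.15 and 0.79, the sham arrays 4.73, 5.51 and 3.88 at day 7 and 4.62, 4.83 and 3.21 at day 42. The uMT CaCl2 arrays read 6.44, 5.21 and 3.84 at day 7 and 6.90, 6.32 and 6.25 at day 42. The uMT CaCl2 arrays of day 7 overlapped their sham group, and those of day 42 did not. Ordered by mean level, the groups ran from WT pre (0.38 ± 0.27, SD, n = 3) through uMT pre, WT sham day 42, uMT sham day 42, uMT sham day 7, uMT CaCl2 day 7, WT sham day 7, WT CaCl2 day 42 and uMT CaCl2 day 42 to WT CaCl2 day 7 (6.92 ± 0.42, SD, n = 3). Of these neighbours WT pre and uMT pre did not overlap, and neither did WT sham day 7 and WT CaCl2 day 42, whose nearest arrays read 5.91 and 5.94. Every other pair of neighbours overlapped.

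**Figure D1:**
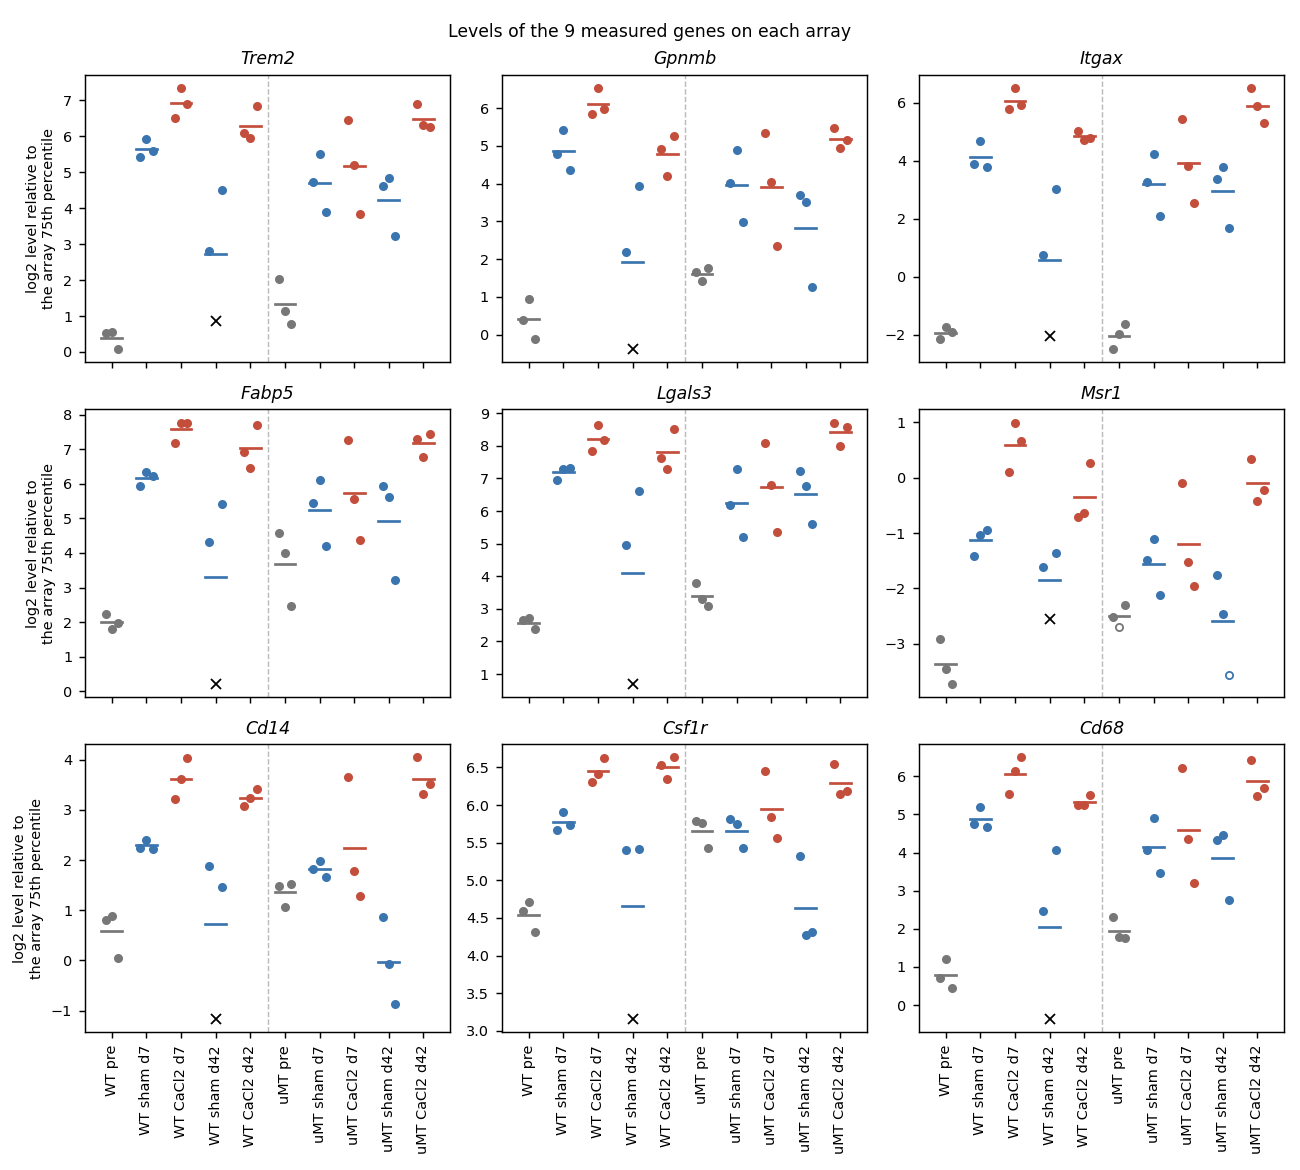
Log2 level of each of the 9 measured genes relative to the 75th percentile of its array, by group, for 30 arrays. Points are arrays, the line is the mean of 3, open points were not well above background and x marks the dim WT sham day 42 array, which was lowest of its group for all 9 genes.

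After CaCl2 in WT at day 42, all 9 measured members rose against sham, where 6.79% of all gene names were called higher. Trem2 was 11.9-fold higher (3.57 ± 0.67, adjusted p = 0.00178). Itgax, the CD11c integrin of macrophages and dendritic cells, was 19.3-fold higher (4.27 ± 0.84, adjusted p = 0.00241). The other 7 rose by 1.49 (Msr1) to 3.72 (Fabp5). The median change of the members was 3.27, against 0.0528 over all gene names. With the dim array left out 6 of the 9 were called, where 7.14% of gene names were called higher. Trem2 then changed by 2.64 (adjusted p = 0.00946), Itgax by 2.96 (adjusted p = 0.0124) and Csf1r by 1.1 (adjusted p = 0.0118). Lgals3 changed by 2.01 (adjusted p = 0.0443), Cd68 by 2.06 (adjusted p = 0.0378) and Cd14 by 1.56 (adjusted p = 0.0402). Gpnmb (1.73, adjusted p = 0.118), Fabp5 (2.16, adjusted p = 0.0635) and Msr1 (1.13, adjusted p = 0.126) were no longer called. Without WT CaCl2 replicate 3, 5 were called. Within the 1 slide that held 3 CaCl2 arrays and 1 sham array, no member was called with limma and the changes ran from 0.84 (Gpnmb) to 1.83 (Itgax). Trem2 there was 1.79 higher (adjusted p = 0.164). With only the 6 arrays of these groups in the fit, none was called either (adjusted p of Trem2 = 0.288).

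**Figure D2:**
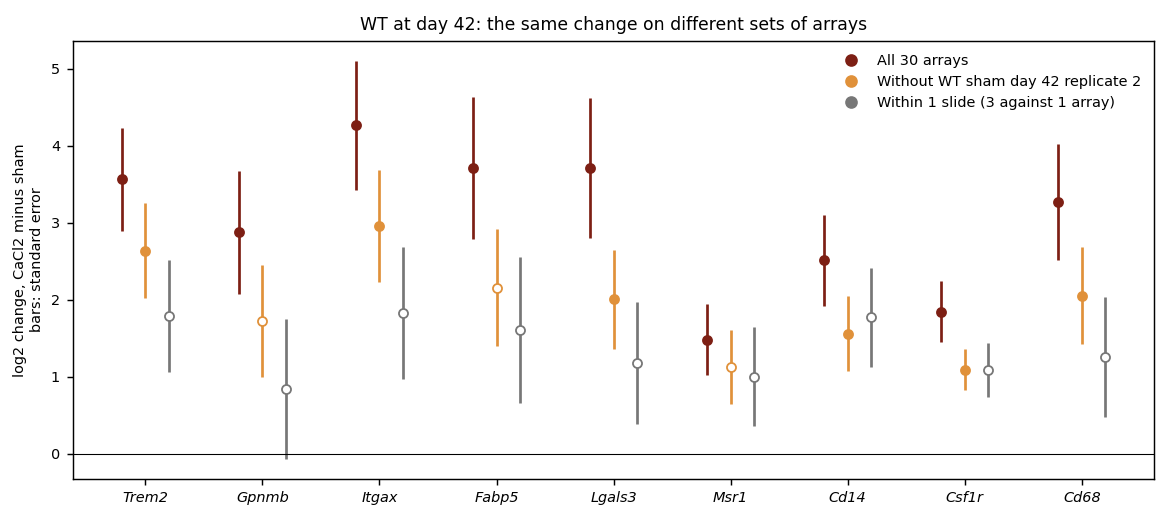
Log2 change of CaCl2 against sham in WT at day 42 for each measured gene, ± standard error, with all 30 arrays, without the dim sham array, and within the slide that held 3 CaCl2 arrays and 1 sham array. For Trem2 the change was 3.57, 2.64 and 1.79, and all points of the 9 genes are above 0.

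After CaCl2 in uMT at day 42, 5 of 9 members rose against sham: Trem2, Itgax, Msr1, Cd14 and Csf1r. The share of all gene names called higher was 4.62%. Cd14 was 12.6-fold higher (3.65 ± 0.59, adjusted p = 5.72e-04), Msr1 5.63-fold (2.49 ± 0.46, adjusted p = 0.00176) and Trem2 4.82-fold (2.27 ± 0.67, adjusted p = 0.0421). Gpnmb (2.36, adjusted p = 0.0807), Fabp5 (2.23, adjusted p = 0.174), Lgals3 (1.89, adjusted p = 0.259) and Cd68 (2.02, adjusted p = 0.12) were not called. For all 9, each CaCl2 array was above each sham array, which held for 13.8% of all gene names. Without the dim WT array, which enters only through the pooled spread, all 9 were called, and the share of all gene names called then is not given here. Without uMT CaCl2 replicate 1 or uMT sham replicate 3, 2 were called, and without replicate 2 of either group 3 were. With slide as a random block, 1 member was called in WT and 0 in uMT at day 42; the fitted correlation within slides was 0.782 with the dim array and -0.0687 without it.

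At day 7 in WT, 1 of 9 members was called higher after CaCl2 than after sham, where 2.98% of all gene names were. This was Msr1, a scavenger receptor that takes up modified lipoproteins (1.71 ± 0.46, adjusted p = 0.0254). Every CaCl2 array was above every sham array for all 9 members, which was so for 30.3% of all gene names. The other 8 changes were 0.68 (Csf1r) to 1.95 (Itgax), with adjusted p of 0.181 for Itgax and 0.292 for Trem2. The call of Msr1 was lost when any WT sham day 7 array, or CaCl2 replicate 2 or 3, was left out, and with the authors' own normalization or quantile normalization. It was also lost with slide as a fixed term (1.47, adjusted p = 0.502) or as a random block (1.57, adjusted p = 0.393), which each left 0 members called. With slide fixed, the estimates of Trem2 (-0.42), Gpnmb (-0.51), Itgax (-0.30), Lgals3 (-0.63) and Cd68 (-0.41) were negative. Those of Cd14 (1.75), Csf1r (0.66) and Fabp5 (0.31) stayed positive. With the random block Trem2 (-0.01) and Lgals3 (-0.11) were negative, and Trem2 was 1.45 when the dim array was left out too. The direction for these genes thus depended on the slide term. Without the dim array of day 42, 3 members were called, Msr1, Cd14 (1.32, adjusted p = 0.0391) and Itgax (1.95, adjusted p = 0.0401). With only these 6 arrays in the fit all 9 were, and the share of all gene names called in that fit is not given here.

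At day 7 in uMT none of the 9 was called with limma, 0 had an unadjusted p under 0.05, and 0.503% of all gene names were called higher. Changes ran from -0.04 (Gpnmb) to 0.74 (Itgax). No member had its CaCl2 arrays all above its sham arrays, which was so for 16.4% of gene names. The 3 CaCl2 arrays stood apart from each other, and for all 9 members replicate 1 was highest and replicate 3 lowest. Trem2 read 6.44, 5.21 and 3.84 there. The summed level of 5 smooth muscle genes (Myh11, Cnn1, Acta2, Tagln, Smtn) on the same arrays was 8.61, 10.9 and 11.4, the opposite order, against 10.9 on each uMT sham day 7 array. The part of tissue make-up in the result was not tested.

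The difference in the CaCl2 response between genotypes was tested directly, as uMT minus WT. No member was called at day 7, where 0% of all gene names were and 1 member had an unadjusted p under 0.05, or at day 42, where 0.107% were and no member did. Estimates ran from -1.35 (Msr1) to -0.38 (Csf1r) at day 7 and from -1.83 (Lgals3) to 1.14 (Cd14) at day 42. For Trem2 at day 42 it was -1.30 ± 0.94 (adjusted p = 0.774), and -0.37 without the dim array. The standard errors allow sizeable differences either way.

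**Figure D3:**
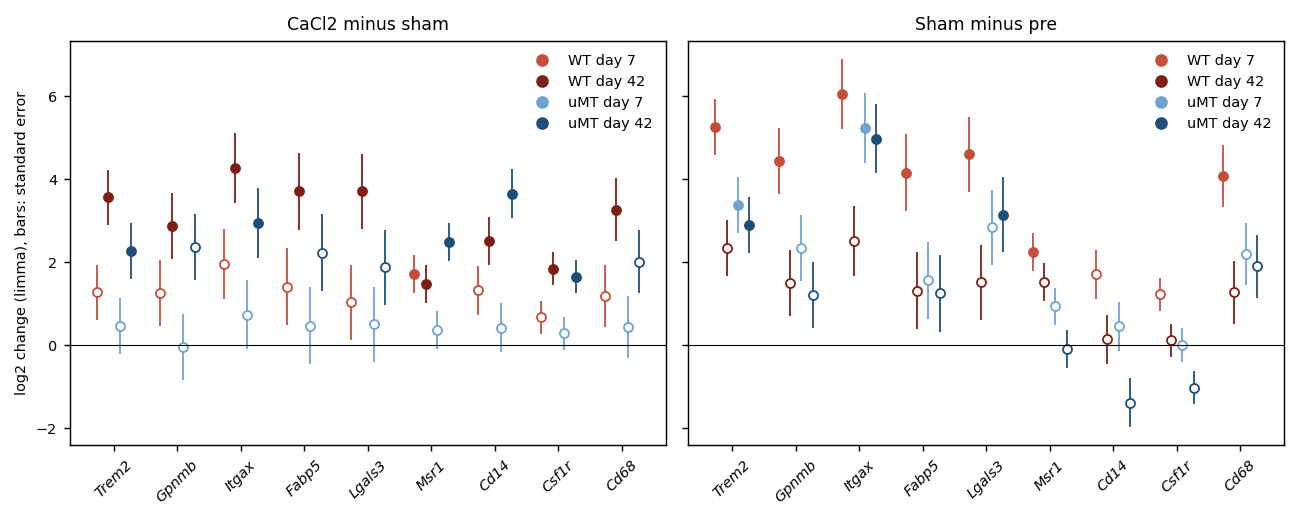
Log2 change ± standard error of CaCl2 against sham and of sham against the unoperated group, for 9 genes in both genotypes at days 7 and 42. Filled points have an adjusted p under 0.05: 9 for CaCl2 in WT at day 42, 5 in uMT at day 42, and 7 for sham in WT at day 7.

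Sham operation was compared with the unoperated aorta. In WT at day 7, 7 of 9 rose against the unoperated aorta, where 2.29% of all gene names were called higher. Itgax was 66.6-fold higher (6.06 ± 0.84, adjusted p = 1.56e-04), Trem2 38.3-fold (5.26 ± 0.67, adjusted p = 6.86e-05) and Lgals3, the glycan-binding protein galectin-3, 24.4-fold (4.61 ± 0.90, adjusted p = 0.00501). Cd14 (1.71, adjusted p = 0.189) and Csf1r (1.23, adjusted p = 0.143) were not called. All sham arrays were above all pre arrays for all 9, as for 16.4% of gene names. These 6 arrays shared a slide, and in a fit within it all 9 were called, with Cd14 at an adjusted p of 0.0367 and Csf1r at 0.00545. All 9 were also called without the dim array. The shares of all gene names called in these other fits are not given here.

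At day 42 in WT sham against pre, limma called 0 of 9 members, 3 had an unadjusted p under 0.05, and 0.168% of gene names were called higher. Trem2 was 2.34 ± 0.67 higher (adjusted p = 0.161) and Itgax 2.51 ± 0.84 (adjusted p = 0.196). All sham arrays were above all pre arrays for 2 members, Trem2 and Msr1, as for 9.84% of gene names. Without the dim array 3 were called, where 0.198% of gene names were called higher: Trem2 (3.27, adjusted p = 0.0243), Itgax (3.82, adjusted p = 0.0243) and Lgals3 (3.21, adjusted p = 0.035).

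In uMT at day 7, Trem2 (3.38 ± 0.67, adjusted p = 0.00937) and Itgax (5.23 ± 0.84, adjusted p = 0.00235) rose in sham against pre, 2 of 9, while 1.49% of gene names were called higher. For 7 members the sham arrays were all above the pre arrays, as for 15.3% of gene names. Csf1r differed by 0.01 ± 0.40. At day 42 in uMT, 3 of 9 rose, where 7.29% of gene names were called higher: Trem2 (2.9, adjusted p = 0.00683), Itgax (4.98, adjusted p = 0.00143) and Lgals3 (3.15, adjusted p = 0.0209). Their arrays, and those of Cd68, lay wholly above pre, which was so for 15.1% of gene names. A second, dimmer probe of Cd68 overlapped pre there (0.42, adjusted p over all probes = 0.753). The arrays of Cd14 (-1.38, adjusted p = 0.102) and Csf1r (-1.02, adjusted p = 0.0781) lay wholly below pre, as did 24.3% of gene names. Within the slide that held 3 sham and 2 pre arrays Csf1r was called lower (-0.95, adjusted p = 0.0146). Both were called lower without the dim array, Cd14 at an adjusted p of 0.0156 and Csf1r at 0.00196. The call counts rest on single arrays too: leaving out replicate 2 of the sham group left 1 call at day 7 and 1 at day 42, and leaving out uMT pre replicate 2 left 1 at day 7. The counts without the dim array were 5 at day 7 and 6 at day 42.

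The difference of this sham response between genotypes was tested in a comparison added after the data were seen. At day 7 no member was called and 0% of gene names were, with 1 member at an unadjusted p under 0.05 and estimates of -2.60 (Fabp5) to -0.83 (Itgax). At day 42 no member was called against 5.19% of gene names, and 2 had an unadjusted p under 0.05. A second, dimmer probe of Csf1r, which did not stand for the gene, passed the threshold there (-2.52, adjusted p over all probes = 0.0072), and without the dim array too (-2.48, adjusted p over all probes = 0.0015). Without the dim array limma called 3 at day 42, where 29.4% of gene names were called, all more negative in uMT: Cd14 (-2.48, adjusted p = 0.00776), Csf1r (-1.89, adjusted p = 9.30e-04) and Msr1 (-1.98, adjusted p = 0.0265). This count was near the share over all gene names. The unoperated levels enter these differences and were higher in uMT. Mean pre levels in uMT and WT were 1.36 and 0.58 for Cd14, 5.65 and 4.54 for Csf1r, and -2.50 and -3.37 for Msr1.

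Against the unoperated aorta, in comparisons also added later, CaCl2 raised all 9 members in WT at both times. The share of gene names called higher was 11.6% at day 7 and 9.67% at day 42. Itgax was 258-fold higher at day 7 (8.01 ± 0.84, adjusted p = 6.24e-07) and Trem2 92.8-fold (6.54 ± 0.67, adjusted p = 4.96e-07). At day 42 Trem2 was 60.0-fold higher (5.91 ± 0.67, adjusted p = 1.96e-06). In uMT 4 of 9 were called at day 7, Trem2 (3.84), Itgax (5.97), Lgals3 (3.36) and Cd68 (2.64), against 8.11% of gene names. This count was 7 without the dim array and 2 without uMT CaCl2 replicate 1. The dimmer probe of Cd68 gave 1.36 there (adjusted p over all probes = 0.279). At day 42 in uMT 8 of 9 were called, all but Csf1r (0.64, adjusted p = 0.241), against 13.9% of gene names. The uMT pre arrays and the CaCl2 arrays lay on different slides, as did those of WT. With slide as a random block 0 were called in uMT at either time, and with slide as a fixed term 8 were called in WT at day 7 and 3 at day 42.

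Time after CaCl2 could be compared within a slide in each genotype. In WT, limma called 0 of 9 between day 42 and day 7, with 1 at an unadjusted p under 0.05 (Msr1, -0.95, adjusted p = 0.823), where 0.55% of gene names were called either way. For 3 members the day 42 arrays were all below those of day 7, as for 11.5% of gene names. In uMT 0 of 9 were called and 3 had an unadjusted p under 0.05, where 0.971% of gene names were called. All 9 estimates were positive, from 0.34 (Csf1r) to 1.96 (Itgax), with adjusted p of at least 0.317.

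Between genotypes at the same treatment, no member was called by the probe that stands for it. This holds for the average of 5 conditions (2.97% of gene names called, 0 members at an unadjusted p under 0.05), for CaCl2 at day 7 (0.219%, 5 members) and for CaCl2 at day 42 (1.31%, 0 members). The second probe of Csf1r passed the threshold on the average of 5 conditions (-0.62, adjusted p over all probes = 0.0242). After CaCl2 at day 7 the uMT estimates were lower for all 9, by -0.50 (Csf1r) to -2.20 (Gpnmb), and for 4 of them all uMT arrays were below all WT arrays, as for 13.2% of gene names. Without uMT CaCl2 replicate 1 limma called 4 lower: Msr1 (-2.33, adjusted p = 0.0051), Cd14 (-2.08, adjusted p = 0.0389), Gpnmb (-2.92, adjusted p = 0.0464) and Trem2 (-2.39, adjusted p = 0.0493). That array was the highest of its group for all 9 members, and the share of all gene names called without it is not given here. Msr1 alone was called without the dim array. The genotypes lay on different slides here and the part of slide cannot be told apart. At day 42 the estimates ran from -0.22 (Csf1r) to 1.05 (Itgax). The Csf1r estimate turned to 0.11 with quantile normalization.

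Among the surface receptors, Msr1 was dim. Its brighter probe, at chr8:40709296-40709355 (mm9), was well above background on 27 of 30 arrays. In WT it read -2.92, -3.45 and -3.73 in pre, -1.41, -1.03 and -0.94 in sham day 7 and 0.10, 1.0 and 0.67 in CaCl2 day 7. The 3 groups did not overlap. At day 42 WT sham read -1.61, -2.56 and -1.36, the -2.56 not well above background, and WT CaCl2 read -0.71, -0.64 and 0.27. In uMT, sham and CaCl2 read -1.48, -1.10 and -2.12 against -0.10, -1.53 and -1.96 at day 7, which overlapped, and -1.77, -2.47 and -3.56 against 0.34, -0.42 and -0.22 at day 42, which did not. The uMT pre arrays read -2.51, -2.69 and -2.30, and the -2.69 and -3.56 were not well above background. The other Msr1 probe gave changes of CaCl2 against sham of 2.03 in WT at day 7, 2.59 in WT at day 42 and 3.05 in uMT at day 42, with adjusted p over all probes of 0.0475, 0.00899 and 0.00394. Without the dim array its WT day 42 change was 2.16 (adjusted p over all probes = 0.0398).

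Cd14, the co-receptor that hands bacterial lipopolysaccharide to Tlr4, was near its unoperated level in uMT sham at day 7 and below it at day 42. In WT it read 0.81, 0.88 and 0.06 in pre, 2.24, 2.41 and 2.23 in sham day 7 and 3.21, 3.62 and 4.03 in CaCl2 day 7. Its WT day 42 arrays read 1.89, -1.17 and 1.47 in sham, the -1.17 not well above background, and 3.08, 3.24 and 3.41 in CaCl2. The CaCl2 arrays of WT lay close together and above all sham arrays at both times. In uMT, pre read 1.49, 1.06 and 1.52, sham day 7 read 1.82, 1.98 and 1.65 and sham day 42 read 0.87, -0.08 and -0.87. In uMT CaCl2 it read 3.66, 1.79 and 1.29 at day 7 and 4.05, 3.32 and 3.51 at day 42. The day 42 sham arrays were the lowest of uMT, and the day 42 CaCl2 arrays stood above every sham and pre array. In WT, CaCl2 against sham at day 42 changed Cd14 by 2.51 ± 0.59 (adjusted p = 0.00793), and by 1.56 without the dim array.

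Csf1r, the receptor for the macrophage growth factors Csf1 and Il34, had the narrowest range of the 9 outside the dim array. In WT its brightest probe read 4.60, 4.71 and 4.31 in pre, 5.67, 5.91 and 5.74 in sham day 7, and 6.30, 6.41 and 6.63 in CaCl2 day 7. At day 42 the WT arrays read 5.40, 3.15 and 5.42 in sham and 6.54, 6.35 and 6.63 in CaCl2. Outside the dim array the WT groups were tight and CaCl2 was above sham. In uMT it read 5.78, 5.76 and 5.42 in pre, 5.81, 5.75 and 5.42 in sham day 7 and 5.32, 4.28 and 4.31 in sham day 42. In uMT CaCl2 it read 6.45, 5.84 and 5.56 at day 7 and 6.54, 6.14 and 6.18 at day 42. Unoperated and day 7 sham arrays of uMT were alike in range, and day 42 sham was below both. The 3 Csf1r probes differed in size of change. For CaCl2 against sham in WT at day 42 the brightest gave 1.85 ± 0.40 (adjusted p = 0.00482), and the others 0.55 ± 0.34 and -0.49 ± 0.38, with adjusted p over all probes of 0.287 and 0.4. The negative sign of the third rests on the dim array. Its sham arrays read 0.95, 3.31 and 0.80, the 3.31 being the dim one, and its CaCl2 arrays 1.20, 1.0 and 1.37. With that array left out these other 2 probes gave 0.59 (adjusted p over all probes = 0.321) and 0.32 (adjusted p over all probes = 0.278). In uMT at day 42 they gave 1.66, 1.43 and 0.28. The fall in uMT sham day 42 against pre was -1.46 with the second probe (adjusted p over all probes = 0.00676) and -0.29 with the third. The changes of Csf1r named here are those of the brightest probe.

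Itgax had the widest range, and its probe lies at chr7:135294052-135294111 (mm9). In WT pre it read -2.16, -1.73 and -1.92, in sham day 7 3.89, 4.68 and 3.78 and in CaCl2 day 7 5.78, 6.52 and 5.91. The WT day 42 arrays read 0.76, -2.05 and 3.0 in sham, the -2.05 not well above background, and 5.03, 4.72 and 4.77 in CaCl2. Each operated WT group outside the dim array lay above pre. In uMT, pre read -2.51, -1.99 and -1.62, sham 3.26, 4.22 and 2.10 at day 7 and 3.36, 3.79 and 1.67 at day 42. The uMT CaCl2 arrays read 5.45, 3.81 and 2.53 at day 7 and 6.50, 5.88 and 5.30 at day 42. All uMT operated arrays were far above pre, and only those of day 42 separated CaCl2 from sham. Itgax in uMT CaCl2 day 42 was 2.95 ± 0.84 above sham (adjusted p = 0.0344), a call lost with quantile normalization.

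Of the genes of lipid and lysosome handling, Lgals3 (probe at chr14:48005414-48005473, mm9) had WT levels of 2.65, 2.71 and 2.38 in pre, 6.94, 7.29 and 7.33 in sham day 7 and 7.85, 8.64 and 8.18 in CaCl2 day 7. At day 42 they were 4.97, 0.69 and 6.63 in sham and 7.63, 7.28 and 8.51 in CaCl2. In both times CaCl2 lay above sham, with the day 42 sham arrays the more spread. The uMT levels of Lgals3 were 3.79, 3.30 and 3.08 in pre, 6.19, 7.30 and 5.22 in sham day 7, 7.24, 6.78 and 5.59 in sham day 42, 8.09, 6.80 and 5.35 in CaCl2 day 7 and 8.71, 7.98 and 8.57 in CaCl2 day 42. Day 7 overlapped and day 42 did not.

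Fabp5, a carrier of fatty acids in the cell, has its probe at chr3:10016185-10016244 (mm9). It ranged from 1.79 to 2.24 in WT pre, 5.95 to 6.33 in sham day 7, 7.19 to 7.77 in CaCl2 day 7 and 6.47 to 7.70 in CaCl2 day 42. The WT sham day 42 arrays read 4.32, 0.20 and 5.42. The dim array was thus below even the unoperated arrays. In uMT it ranged from 2.48 to 4.58 in pre, 4.20 to 6.11 in sham day 7, 3.23 to 5.95 in sham day 42, 4.37 to 7.26 in CaCl2 day 7 and 6.77 to 7.43 in CaCl2 day 42. In uMT only the last of these groups was tight. Gpnmb, a lysosome-associated membrane glycoprotein (probe at chr6:49006386-49006445, mm9), ranged from -0.11 to 0.94 in WT pre, 4.37 to 5.41 in sham day 7, 5.85 to 6.54 in CaCl2 day 7 and 4.21 to 5.26 in CaCl2 day 42. Its WT sham day 42 arrays read 2.18, -0.39 and 3.95. The sham array of replicate 3 lay just under the lowest CaCl2 array. In uMT it ranged from 1.43 to 1.76 in pre, 2.98 to 4.89 in sham day 7, 1.28 to 3.71 in sham day 42, 2.36 to 5.34 in CaCl2 day 7 and 4.95 to 5.46 in CaCl2 day 42. Cd68, the lysosomal glycoprotein used to stain macrophages, has 2 probes, the brighter at chr11:69477775-69477834 (mm9). It ranged from 0.44 to 1.20 in WT pre, 4.68 to 5.19 in sham day 7, 5.54 to 6.49 in CaCl2 day 7 and 5.24 to 5.50 in CaCl2 day 42, and the WT sham day 42 arrays read 2.48, -0.37 and 4.07. In uMT it ranged from 1.76 to 2.31 in pre, 3.47 to 4.91 in sham day 7, 2.76 to 4.46 in sham day 42, 3.19 to 6.21 in CaCl2 day 7 and 5.48 to 6.43 in CaCl2 day 42. For CaCl2 against sham in WT at day 42 its probes gave 3.27 ± 0.75 (adjusted p = 0.00722) and 2.45 ± 0.83 (adjusted p over all probes = 0.0597). Without the dim array the dimmer probe gave 1.40 (adjusted p over all probes = 0.268).

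The members fell into those that tracked Trem2 and those that did so less. Over the 29 arrays other than the dim one, Pearson's r with Trem2 was 0.988 for Lgals3, 0.987 for Cd68, 0.98 for Itgax, 0.965 for Gpnmb and 0.963 for Fabp5. It was 0.894 for Msr1, 0.755 for Cd14 and 0.743 for Csf1r. Cd14 and Csf1r had r = 0.937 with each other. Removing group means left r with Trem2 at 0.945 for Cd68, 0.94 for Lgals3 and 0.689 for Csf1r. Arrays of a group share treatment, slide and array scale, so these are descriptions. The 5 gene names outside the members with the highest r with Trem2 were Il7r (0.988), Cd300c2, Pira7 and Cdk18 (each 0.987) and Gm14548 (0.986), and over all 30 arrays their r was 0.963 to 0.988.

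**Figure D4:**
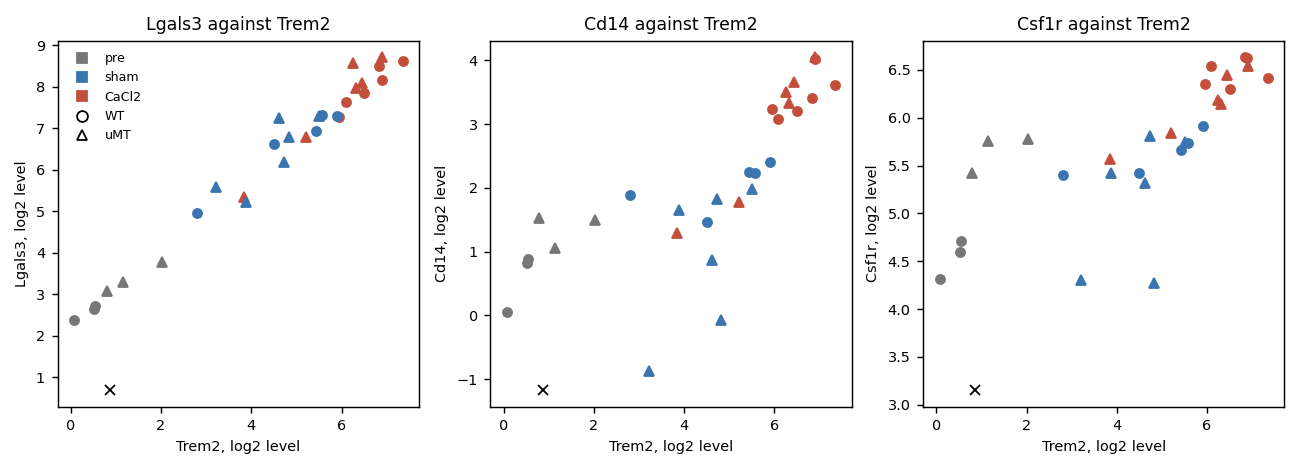
Log2 levels of Lgals3, Cd14 and Csf1r (y axes) against Trem2 (x axis) on the 30 arrays, by group, with x for the dim array. Lgals3 lies near a line (r = 0.988 over 29 arrays), while Cd14 (0.755) and Csf1r (0.743) are more spread at a given Trem2 level.

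Trem2 rose relative to Csf1r over pre in every operated group of both genotypes, uMT sham at day 42 among them. The Trem2 level minus the Csf1r level of the same array ran from -4.63 to -3.75 in uMT pre and from -1.10 to 0.55 in uMT sham day 42, with no overlap. In WT the same quantity ran from -4.24 to -4.07 in pre and -2.60 to -0.92 in sham day 42, also with no overlap. In sham day 7 it ran from -0.23 to -0.002 in WT and from -1.54 to -0.24 in uMT. After CaCl2 in WT it ran from 0.20 to 0.94 at day 7 and -0.45 to 0.20 at day 42. After CaCl2 in uMT it ran from -1.72 to -0.01 and 0.07 to 0.35. The share of gene names with no overlap in such a difference was not computed. Only the change of this quantity between groups has a meaning, since the probes differ.

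Genes that work with the members were counted in lists, of which no test was made. At WT day 42, CaCl2 against sham raised 7 of 15 lipid handling genes (median change 1.99). Spp1, the secreted phosphoprotein osteopontin, rose by 6.92 ± 1.17 (adjusted p = 7.85e-04), Apoe, the lipoprotein component, by 1.99, the lysosomal lipase Lipa by 2.04 and the cholesterol exporter Abca1 by 2.83. Of the receptor partners and signalling genes 6 of 10 rose (median 1.78), among them the Trem2 adaptor Tyrobp (3.42, adjusted p = 0.00654), the related adaptor Hcst (3.16), the kinase Syk (1.92, adjusted p = 0.0094) and the Tlr4 co-receptor Ly96 (1.63). Of the growth factors and lineage regulators 5 of 8 rose (median 1.81), among them Irf8 (2.72), Csf2rb (2.28), Csf2ra (2.40) and Il34 (1.74). Monocyte and recruitment genes rose in 6 of 12 (median 2.56), with the chemokine receptors Ccr2 (2.61) and Cx3cr1 (3.74), the chemokine Ccl4 (3.09) and Plac8 (3.12). General macrophage genes rose in 8 of 9 (median 1.94), with Aif1 (2.03) and Adgre1 (2.95). Of 9 resident adventitial macrophage genes, 1 rose, the mannose receptor Mrc1 (2.47, adjusted p = 0.0306; median 0.879). None of these lists had a member called lower. These medians stand beside 0.0528 over all gene names, of which 6.79% were called higher. With the dim array left out, the counts higher fell to 5 of 15 for lipid handling (median 1.06), 4 of 10 for receptor partners (1.06), 3 of 8 for growth factors (1.13), 3 of 12 for monocytes (1.71), 3 of 9 for general macrophages (1.30) and 0 of 9 for resident genes (0.234), against a median of 0.0244 over all gene names. In that fit 7.14% of gene names were called higher. Spp1 then changed by 5.94 (adjusted p = 0.00518), Tyrobp by 2.09 (adjusted p = 0.0311) and Syk by 1.24 (adjusted p = 0.0473). Of the genes named above, Ly96 (0.88, adjusted p = 0.0708), Il34 (1.26, adjusted p = 0.104), Plac8 (1.76, adjusted p = 0.0558), Adgre1 (1.47, adjusted p = 0.0578) and Mrc1 (1.13, adjusted p = 0.161) were no longer called.

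In uMT at day 42 the counts higher were 5 of 15 for lipid handling (median 1.52), 4 of 10 for receptor partners (1.64), 5 of 8 for growth factors (1.87), 7 of 12 for monocytes (2.58) and 7 of 9 for general macrophages (2.23), against a median of -0.0448 over all gene names. Of all gene names 4.62% were called higher there. Spp1 rose by 5.30 (adjusted p = 0.00749) and the cholesterol carrier Npc2 by 1.60. Syk rose by 1.93 (adjusted p = 0.0123), while Tyrobp was 2.36 higher and was not called (adjusted p = 0.0707). Ccr2 rose by 3.0, Cx3cr1 by 4.59 and the monocyte chemokine Ccl2 by 4.34. Of 9 resident genes, none rose and 2 fell, Cd209f (-2.10) and Cbr2 (-1.93), with a list median of 0.59, where 1.71% of gene names were called lower.

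At day 7 few of these genes were called. In WT no lipid handling gene (0 of 15, median 0.841) and no monocyte gene (0 of 12, median 1.40) was called, where the median of all gene names was 0.0942. Those called higher were Lyn (1.68) among receptor partners, Csf2rb (1.85) among growth factors, and Aif1 (1.82) and Fcgr1 (1.57) among general macrophage genes. Of all gene names 2.98% were called higher. Of the resident genes 2 fell, the haemoglobin scavenger receptor Cd163, at least 3.12-fold lower, which is a bound because it was not well above background after CaCl2, and Cbr2 (-2.84, adjusted p = 0.00715), where 3.61% of gene names were called lower. In uMT none of the first 5 lists had a gene called, and Cd163 and Cd209f fell, where 0.391% of gene names were called lower. In WT sham against pre at day 7, 6 of 15 lipid handling genes rose, with the macrophage elastase Mmp12 at least 47.8-fold higher and Spp1 7.36 ± 1.17 higher (adjusted p = 7.35e-04), and 6 of 9 general macrophage genes rose. No resident gene was called there, and 2.29% of gene names were called higher.

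In uMT sham at day 42 against pre, where Trem2, Itgax and Lgals3 rose, the resident macrophage genes fell in 6 of 9 (median -2.27, against -0.0591 over all gene names), where 10.1% of all gene names were called lower. Cd163 was at least 2.6-fold lower, and Folr2 (-2.96), Cd209f (-2.87), F13a1 (-2.50), Vsig4 (-2.23) and Mrc1 (-2.12) were lower. The complement genes C1qa (-2.06) and C1qb (-1.54) fell too. In the general macrophage list 2 of 9 were called lower and 0 higher (median -0.977). Mmp12, at least 17.8-fold higher, and Spp1, at least 11.4-fold higher, rose. Of the 15 lipid handling genes, 2 were called higher and 2 lower (median 0.298), where 7.29% of gene names were called higher. Markers of other cell types moved there as well. All 4 fibroblast genes tested fell (Dpt, Pdgfra, Dcn and Lum, median -1.67), with summed levels of 7.71 to 9.36 against 9.81 to 10.4 in pre. Of 6 osteoclast genes 3 rose (4.69 to 6.29 against 5.52 to 5.95), and of 5 dendritic cell genes 2 did (-0.739 to 1.59 against 0.294 to 0.584). Their part in these changes was not tested.

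**Figure D5:**
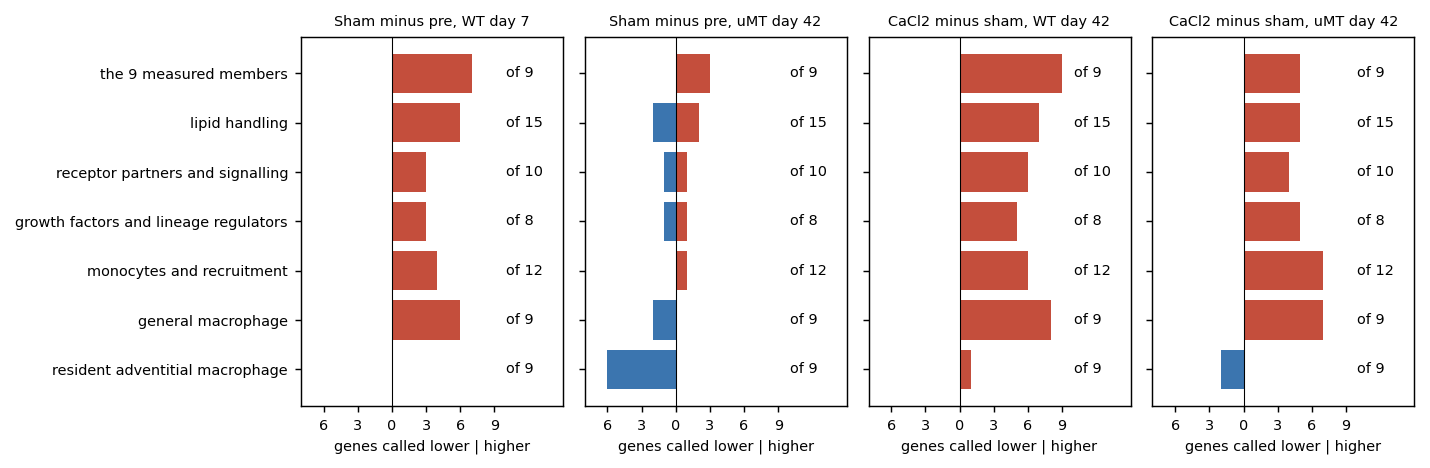
Numbers of genes called higher (right) and lower (left) at an adjusted p under 0.05 in each companion list, by comparison, with the number tested. CaCl2 at day 42 raised lipid handling genes in WT (7 of 15, with 6.79% of all gene names called higher) and in uMT (5 of 15, with 4.62%). In uMT sham day 42 against pre, 6 of 9 resident macrophage genes fell, where 10.1% of all gene names were called lower.

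Markers of other cell types moved with these results. In WT at day 42, 4 of 5 smooth muscle genes were lower after CaCl2, with summed levels of 9.62 to 10.4 against 11.5 to 12.7 in sham, and 3.59% of gene names were called lower. The WT sham ranges in this paragraph include the dim array, and without it the smooth muscle range was 11.5 to 11.6 and 3 of the 5 were lower. In this WT comparison 6.79% of gene names were called higher. Without the dim array the shares were 7.14% higher and 5.12% lower. Of 7 neutrophil genes 3 rose, with summed levels of 7.54 to 8.02 against 7.15 to 10.2 (7.16 to 7.25 without the dim array, where 4 rose). Of 5 dendritic cell genes 3 rose and 1 fell, with 2.47 to 3.23 against 0.469 to 2.23, a range that the dim array did not set. Without it 3 rose and none fell. Itgax is also a dendritic cell gene, and the dendritic cell marker Xcr1 did not pass the filter on dim probes. Of 6 osteoclast genes 4 rose, Atp6v0d2, Dcstamp, Ctsk and Acp5, with 7.18 to 7.96 against 2.72 to 6.06 (5.91 to 6.06 without the dim array, where Atp6v0d2, Dcstamp and Calcr rose). Of 4 fibroblast genes 1 rose, Lum, also without that array (1.61, adjusted p = 0.00615), and the summed levels overlapped those of sham. Of 5 endothelial genes 1 fell, Pecam1 (-1.92), with 5.79 to 6.64 against 5.80 to 10.1 (5.80 to 7.12 without it, where none fell). In uMT at day 42, 1 of 5 smooth muscle genes fell (9.59 to 10.8 against 11.4 to 12.3), 4 of 5 dendritic cell genes rose (1.89 to 2.77 against -0.739 to 1.59), 4 of 7 neutrophil genes rose (8.20 to 8.88 against 8.01 to 8.80) and 1 of 6 osteoclast genes rose (7.53 to 8.24 against 4.69 to 6.29). There 3 of 4 fibroblast genes rose, Lum, Dpt and Pdgfra (median 1.59, 9.80 to 10.3 against 7.71 to 9.36), and 2 of 5 endothelial genes fell, Vwf and Pecam1 (median -1.55, 5.88 to 6.89 against 6.70 to 7.76). In this uMT comparison 4.62% of gene names were called higher and 1.71% lower. Gpnmb is also made by melanocytes and osteoclasts. Of 3 melanocyte genes tested none was called in WT at day 42 and 1, Mlana (2.32), rose in uMT at day 42. In WT, melanocyte summed levels were 0.582 to 1.48 after CaCl2 and -0.233 to 0.884 in sham (0.846 to 0.884 without the dim array), and the melanocyte marker Dct did not pass the filter. In uMT they were 0.436 to 1.32 and -1.22 to -0.464. Their part in the results was not tested.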

How the data were processed

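Total RNA of 30 aortic samples was hybridised to Agilent SurePrint G3 Mouse 8x60K arrays. TRIzol is named with RNeasy in the design text and with SV Total RNA in the labels' protocols. The deposited spot intensity values were made with Agilent Feature Extraction 10.7.1.1 per the file headers, while the submitters' processing notes name 9.5.1.1. The authors' matrix of intensity values has the same sorted values in every column, as quantile normalization gives, on a linear scale, and it was an alternative. The log2 processed signal was centred on the 75th percentile of each array. Probes well above background on all 3 arrays of at least 1 group were kept (33228 of 55657), and the brightest stood for a gene. Changes were fitted with limma 3.58.1 in R 4.3.3, with 10 group means over 30 arrays, in 15 comparisons and 6 added after the data were seen. The fit was tested on simulated data. Replicate numbers were not treated as pairs, since same-numbered arrays of CaCl2 and sham deviated together with r of only -0.378 to 0.211. The alternatives were normexp and quantile, quantile, the authors' values, another percentile, no filter, a filter of 15 arrays, the mean of a gene's probes, compared groups alone, slide terms, array weights, a replicate block and leaving out each array. List counts, list genes, marker sums and single probes without the dim array were added after the data were seen. The members and lists were chosen with earlier results of these data known. All members were named, with up to 4 genes of a list by lowest p, and in sham comparisons further list genes chosen after their values were seen. The planned likeness ranking for Ly6c2 and protein sequences were not made. Some list genes are not reported here, and the list counts and sums leave them out.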

Additional observations from a re-analysis of the deposited data

How the results depend on the processing

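For the 9 genes, 21 counts of called members were recomputed under 460 alternatives. The count stayed within 1.5 times its value in 389, fell below in 29 and rose above in 42. Counts that were 0 at first could not fall, and those that stayed at 0 are among the 389. Of 1135 recomputed changes of called members, 1013 kept the call and 122 lost it, and none changed direction. The losses were uneven. For CaCl2 against sham in WT at day 42, Msr1 lost its call in 11 of 20 alternatives, Gpnmb in 9 of 20 and Trem2 in 4 of 20. In uMT at day 42 Trem2 lost it in 8 of 19, and Cd14 in 1 of 19. No call against pre was lost in more than 5 alternatives. Of 3005 recomputed changes that were not called at first, 168 became called and 140 changed sign without being called. The cause of the differences below was not tested.

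Leaving out 1 array gave 0 to 3 called members for CaCl2 against sham in WT at day 7, 5 to 9 in WT at day 42 and 2 to 9 in uMT at day 42. It gave 0 to 3 for sham against pre in WT at day 42, 1 to 5 in uMT at day 7 and 1 to 6 in uMT at day 42. It gave 0 to 4 for uMT against WT after CaCl2 at day 7, 2 to 7 for CaCl2 against pre in uMT at day 7 and 0 to 3 for the genotype difference of the sham response at day 42. The highest of these counts came without the dim WT sham day 42 array, apart from WT CaCl2 at day 42, where 6 were called without it, and uMT against WT, where the 4 came without uMT CaCl2 replicate 1. Sham against pre in WT at day 7 gave 6 to 9.

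For CaCl2 against sham in WT at day 7, where 1 was called, quantile normalization, the authors' values, slide as a fixed term and slide as a random block each gave 0, and the compared groups alone gave 9. In WT at day 42 the compared groups alone, slide as a fixed term and the fit within the slide gave 0, and slide as a random block 1. In uMT at day 42 the compared groups alone and no filter gave 3, and slide as a random block 0. For CaCl2 against pre in uMT the compared groups alone gave 1 at day 7, and slide as a random block gave 0 at day 7 and 0 at day 42. In WT at day 42 slide as a fixed term gave 3. For sham against pre in uMT, slide as a fixed term gave 4 at day 7 and 5 at day 42, slide as a random block 5 and 5, and the fit within the slide 4 and 5. The genotype difference of the sham response at day 42 gave 2 with slide as a fixed term, 1 as a random block and 1 with the mean of a gene's probes.

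Slide as a random block without the dim array gave 5 for CaCl2 against sham in WT at day 7, 9 in uMT at day 42, 3 for sham against pre in WT at day 42, 5 in uMT at day 7 and 6 in uMT at day 42. It gave 2 for uMT against WT on average, 5 after CaCl2 at day 7, 7 for CaCl2 against pre in uMT at day 7 and 3 for the genotype difference of the sham response at day 42. Array weights, whose fit did not converge and which gave the dim array a weight of 3.39e-04, called 9 for CaCl2 against sham in WT at day 7 and 8 in uMT at day 42. They called 2 and 1 for the genotype difference of the CaCl2 response at days 7 and 42, 1 and 7 for day 42 against day 7 in WT and uMT, 8 for sham against pre in WT at day 42, 5 and 6 in uMT at days 7 and 42, 2 for uMT against WT on average, 9 after CaCl2 at day 7 and 3 for the genotype difference of the sham response at day 42.

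The replicate block left every count of called members as it was, with 9 in WT and 5 in uMT for CaCl2 against sham at day 42. Slide as a fixed term could not be fitted for comparisons that involve uMT CaCl2 against another slide's arrays or the average of 5 conditions, and a fit within slides was run only where a slide held both groups. Centring on the percentile of probes well above background on all arrays moved the median change of all gene names from -0.0591 to 0.263 for sham against pre in uMT at day 42, and Msr1 there turned from -0.10 to 0.23, with no call either way. Signal over background limits Msr1 most, and the dim array limits every comparison that uses WT sham at day 42. The number of arrays, 3 in each group, limits the precision of all of them.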
